A study of Mus musculus with 6 samples.

Results

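The genes described here are 44 mouse genes that build, feed or empty the autophagosome, or that run the lysosome it fuses with. They were chosen by name, as a list of core autophagy genes and of lysosomal control genes, and each of the 44 has a row among the 24062 rows of the deposited table. All 44 passed the filter on low values, a mean of at least 10 reads over the 6 libraries, so every member was tested. Each library was made from hematopoietic stem cells (HSC), from which all blood cells descend, of a pool of 3 to 5 mice. The 3 CDKO pools carried floxed Nr4a1 (Nr4a1 fl/fl), no functional Nr4a3 (Nr4a3-/-) and, as the labels put it, Rosa26-ERt2, commonly a Cre recombinase at the widely active Rosa26 locus that tamoxifen switches on. The 3 control pools were Nr4a1 fl/fl; Nr4a3-/- without the Rosa26-ERt2 construct. Mice of both groups received tamoxifen at 120 mg per kg on 4 days and were sorted on day 5, so absence of Nr4a3 and exposure to tamoxifen were shared, while the construct and the deletion of Nr4a1 went together and cannot be told apart. The labels give neither the age of the mice nor the markers of the sort.

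Autophagy wraps part of the cytoplasm in a double membrane and delivers it to the lysosome, where acid hydrolases break it down. A kinase complex around ULK1 starts the process, a lipid kinase around VPS34 marks the membrane, ATG2 and ATG9 supply lipid, and a pair of ubiquitin-like conjugation systems attach proteins of the ATG8 family to the growing membrane. Cargo receptors tie selected material to ATG8 proteins, and TFEB and TFE3 are transcription factors that switch on genes of lysosomes and autophagy. In HSC, autophagy is known for clearing mitochondria and for keeping the cells metabolically quiet.

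The libraries held 32863805 to 42772261 counted reads, and levels are given in CPM, the reads of a gene per 1000000 counted reads of its library. At this depth a count of 0 allowed at most 0.0701 to 0.0913 CPM by library (3 counts, counting error only), and the lowest member value in any library was 5.84 CPM. Nr4a1, the targeted gene, had 8.52, 9.76 and 9.12 CPM in CDKO pools, against 15.2, 13.4 and 12.9 CPM in control pools (log2 difference -0.55, SE 0.12, limma adjusted p = 0.00204), and counts per gene do not show which of its exons were read. Nr4a3 was at 0 in all 6 libraries. Differences are in log2(CPM + 1), CDKO minus control, and a gene was called higher or lower at a limma adjusted p under 0.05 (Benjamini-Hochberg over 13732 genes, two-sided). Of the genes tested 66.2% were called. Markers of the sorted cell were present in both groups, with summed levels of 4742 to 4953 CPM in CDKO and 5168 to 5422 CPM in control pools for 10 HSC genes, of which 4 were called higher and 5 lower. Markers of other blood cells also differed between the groups, and their values stand beside the lysosomal genes. In RNA from sorted pools, fewer cells of a kind and less RNA per cell cannot be told apart. The labels name no preparation batch, and a batch shared within a group cannot be told apart from genotype. In 7 of the 44 members the annotated span overlaps another protein-coding gene (Becn1, Atg12, Atg4d, Map1lc3b, Ctsa, Ctsb and Ctsz), and the labels name no strand-specific counting, so reads of shared exons cannot be assigned with certainty.

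Of the 44 members 13 rose and 16 fell in CDKO HSC, while 15 did not pass the test. The 3 cargo receptor genes (Nbr1, Optn and Sqstm1) and the 3 mitophagy genes (Pink1, Bnip3 and Bnip3l) among them fell, as did both ATG2 lipid transfer genes, while the transcription factor genes Tfeb and Tfe3 and the lysosomal membrane genes Lamp1 and Lamp2 rose. Of 18 further genes of mitophagy and selective receptors, not among the 44, 6 rose and 5 fell. Of 59 lysosomal hydrolase and membrane genes outside the 44, 15 rose and 23 fell. The share called was 65.9%, against 66.2% of all genes tested, so the number of calls was near the background. By direction, 29.5% of members were called higher, against 31.1% of all genes, and 36.4% were called lower, against 35.2%. The median log2 difference was -0.02 over the members and -0.02 over all genes. Called changes of at least 1.5-fold, taken on the log2(CPM + 1) scale, were seen in 5 members (11.4%), against 29.1% of all genes tested. Among genes with a mean of at least 10 CPM they were seen in 5 of 43 members (11.6%), against 18.7% of 9885 genes. Atg5, called at 1.51-fold by mean CPM, fell just short on that scale. No overlap between the CDKO and the control pools was seen for 37 members (84.1%), against 70.7% of all genes. This share was not taken again among genes with a mean of at least 10 CPM, where 43 of the 44 members lie. Pools of a group lay close together for the members, with a median coefficient of variation of 4.44% in CDKO and 3.77% in control pools, against 7.30% and 6.58% over all genes tested. Among genes with a mean of at least 10 CPM these medians were 4.44% and 3.72% for the members, against 5.68% and 5.08%. The authors' deposited table gave 30 members an adjusted p under 0.05, 14 higher and 16 lower in CDKO, which are the 29 called here and Ctsd.

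**Figure D1:**
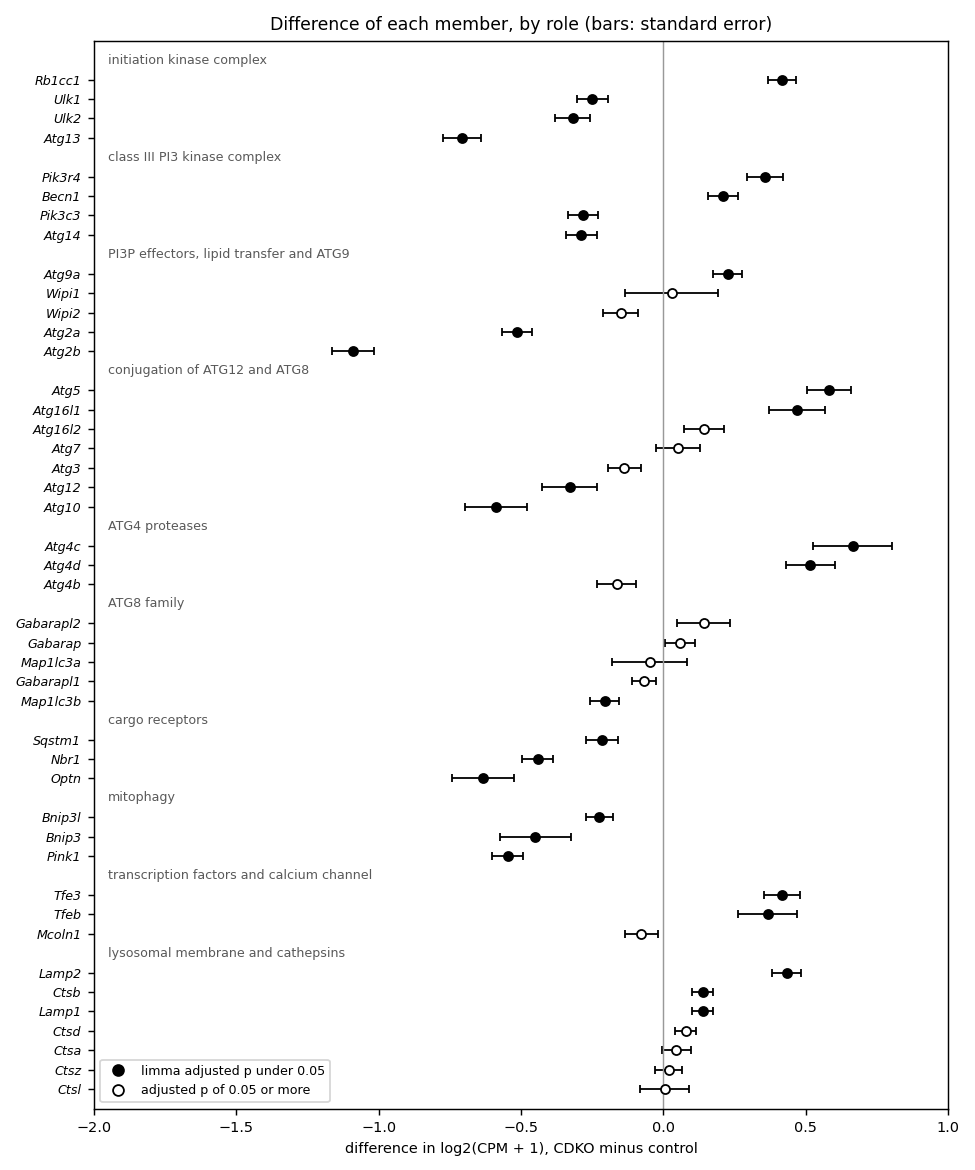
Difference in log2(CPM + 1), CDKO minus control, for each of the 44 members, grouped by role, with bars of 1 SE from limma and filled points where the adjusted p was under 0.05. Cargo receptors and mitophagy genes lie left of 0, the LAMP and cathepsin genes lie at or right of 0 (0.01 to 0.43), Mcoln1 lies at -0.08, and the complexes that start autophagy hold genes on both sides.

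TFEB and TFE3, related factors that bind the promoters of lysosomal genes, were both higher at the RNA level. Their relatives Mitf and Tfec, outside the 44, were not called (log2 difference -0.12, limma adjusted p = 0.594, and 0.19, limma adjusted p = 0.0956). Tfe3 (chromosome X, 7762530 to 7775202, mm10) had 59.2, 57.0 and 56.6 CPM in CDKO pools, against 41.8, 43.0 and 43.9 CPM in control pools. All CDKO pools stood above all control pools, and the rise was 1.34-fold (log2 difference 0.42, SE 0.06, limma adjusted p = 1.29e-04). Tfeb (chromosome 17, 47737037 to 47792416) was measured at 26.3, 27.6 and 31.7 CPM in CDKO pools, against 23.0, 19.9 and 22.8 CPM in control pools. Its pools did not overlap either, although CDKO replicate 3 was higher than the other 2, and the rise was 1.30-fold (log2 difference 0.37, SE 0.10, limma adjusted p = 0.00815). Mcoln1, the lysosomal calcium channel whose opening is known to activate TFEB, had 58.2, 56.4 and 58.6 CPM in CDKO pools, against 59.7, 61.6 and 61.5 CPM in control pools. The CDKO pools lay just under the control pools, and the difference did not pass (log2 difference -0.08, SE 0.06, limma adjusted p = 0.253).

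The promoters of the members were searched for short motifs because TFEB and TFE3 are known to bind a palindromic element of lysosomal promoters, the CLEAR element. Promoter windows of RefSeq (GRCm38.p6, 250 bases before to 50 after a start) were found for 36 of the 44 members. These were 9 of the 13 members called higher, 13 of the 16 called lower and 14 of the 15 not called. Atg12, Atg16l1, Becn1, Bnip3l, Ctsb, Map1lc3a, Pik3c3 and Rb1cc1 had no window and were not searched. The core of the CLEAR element, TCACGTGA, occurred in a window of 4 of the 36 members (11.1%), against 1.12% of all genes with a window. These stretches are printed 5′ to 3′ with up to 30 bases on each side, without bases past the start, and the capitals mark the core.
Atg3 (chr16:45158727-45158794, plus strand): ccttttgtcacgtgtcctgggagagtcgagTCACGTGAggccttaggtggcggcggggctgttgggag
Ctsa (chr2:164833730-164833772, plus strand): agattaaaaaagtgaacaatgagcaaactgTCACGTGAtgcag
Ctsd (chr7:142387889-142387956, minus strand): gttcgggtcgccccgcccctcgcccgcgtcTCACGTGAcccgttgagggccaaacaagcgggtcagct
Mcoln1 (chr8:3500443-3500510, plus strand): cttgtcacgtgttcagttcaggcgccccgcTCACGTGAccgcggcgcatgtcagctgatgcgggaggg
The core began 72, 13, 99 and 46 bases before the start of Atg3, Ctsa, Ctsd and Mcoln1, and Ctsa held a further copy just after its start. None of these 4 genes was called, with log2 differences of -0.14, 0.05, 0.08 and -0.08 in that order. Under some other processing settings Atg3, Ctsa or Ctsd passed, while Mcoln1 passed under none. The authors' deposited table gave Ctsd an adjusted p of 0.00318.

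The shorter E-box core CACGTG, which lies within the CLEAR core, occurred in windows of 10 of the 36 members (27.8%), against 8.09% of genes with a window. Besides the 4 above these were Atg5 and Lamp1, which rose, Atg14 and Bnip3, which fell, and Atg7 and Ctsl, which were not called. Lamp1 held 4 copies before its start, shown in capitals because no other member held as many.
Lamp1 (chr8:13159070-13159160, plus strand): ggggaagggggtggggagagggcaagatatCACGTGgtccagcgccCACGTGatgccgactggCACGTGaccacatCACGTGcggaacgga
The octamer that NR4A receptors are known to bind, AAAGGTCA, and the FOXO heptamer GTAAACA were found in no window of the 36 members, on either strand, against 1.70% and 4.05% of all genes with a window. For every motif the comparison was with all 27025 genes with a window. These were not limited to genes tested here, whereas all members were tested. A match describes the letters of a window only, and the absence of one says nothing on the factor.

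The kinase complex that starts autophagy had 3 of its 4 genes lower (75%, against 35.2% of all genes tested) and 1 higher (25%, against 31.1%). Atg13, the adaptor that holds the complex together (chromosome 2, 91674612 to 91710597), had 53.7, 60.3 and 55.8 CPM in CDKO pools, against 99.1, 87.4 and 92.7 CPM in control pools. The groups stood well apart, and the fall was 1.65-fold (log2 difference -0.71, SE 0.07, limma adjusted p = 4.63e-06). Rb1cc1, which encodes the large scaffold FIP200, went the other way, at 154, 160.4 and 158 CPM in CDKO pools, against 112, 118 and 122 CPM in control pools. Again no pool of one group reached the other (log2 difference 0.42, SE 0.05, limma adjusted p = 1.97e-05). Ulk1, the kinase itself (chromosome 5, 110784489 to 110810120), had 102, 103 and 97.8 CPM in CDKO pools, against 121, 126 and 114 CPM in control pools, and all CDKO pools were below all control pools (log2 difference -0.25, SE 0.05, limma adjusted p = 0.00149). Its call was lost when GC content and length were corrected for (limma adjusted p = 0.159; 4.02e-05 to 0.159 across its alternatives). Ulk2, the related kinase, averaged 59.2 ± 3.06 CPM in CDKO pools and 74.0 ± 2.43 CPM in control pools (SD, n = 3 each; log2 difference -0.32, SE 0.06, limma adjusted p = 7.46e-04).

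The lipid kinase complex was split evenly, with 50% of its 4 genes higher and 50% lower, against 31.1% and 35.2% of all genes tested. Pik3r4, the regulatory subunit VPS15, had 102, 97.4 and 107 CPM in CDKO pools, against 79.6, 85.1 and 74.4 CPM in control pools, and Becn1, the scaffold Beclin 1, had 110.03, 111 and 109 CPM in CDKO pools, against 89.5, 99.4 and 95.8 CPM in control pools. Both rose with no overlap between groups, Pik3r4 by 1.28-fold (log2 difference 0.36, limma adjusted p = 3.94e-04) and Becn1 by 1.16-fold (log2 difference 0.21, limma adjusted p = 0.00434). Pik3c3, which encodes the catalytic subunit VPS34, was lower at 74.2, 71.2 and 75.0 CPM in CDKO pools, against 91.7, 89.4 and 87.5 CPM in control pools (log2 difference -0.28, SE 0.05, limma adjusted p = 5.96e-04). Atg14, which directs this complex to the forming autophagosome, fell with it, averaging 72.9 ± 2.85 CPM in CDKO pools and 89.2 ± 2.08 CPM in control pools (SD, n = 3 each; log2 difference -0.29, SE 0.05, limma adjusted p = 6.70e-04). The kinase subunit and its autophagy adaptor were thus both lower where the regulatory subunit and Beclin 1 were higher.

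**Figure D2:**
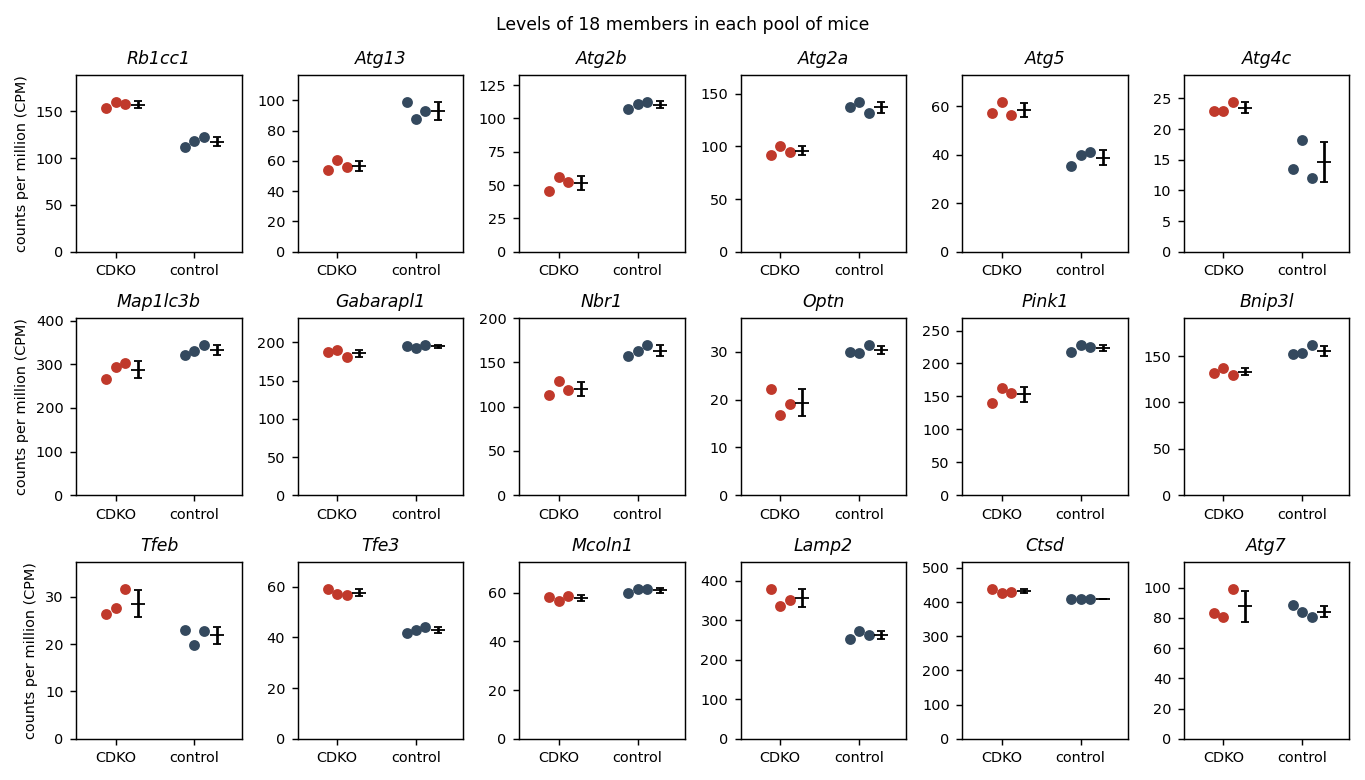
CPM of selected members in each pool, each panel with the CDKO pools left, the control pools right, and the mean with SD of 3 pools beside them; every axis starts at 0. Atg2b falls to 45.6 to 56.4 CPM in CDKO pools, against 107 to 113 CPM in control pools, while Gabarapl1, Mcoln1 and Ctsd differ little.

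Supply of lipid to the membrane held the member with the largest difference among the 44. Atg2b, one of the paralogous lipid transfer proteins ATG2 (chromosome 12, 105613539 to 105685297), had 45.6, 56.4 and 52.5 CPM in CDKO pools, against 107, 111 and 113 CPM in control pools. The CDKO pools were all far below the control pools, a fall of 2.14-fold (log2 difference -1.09, SE 0.07, limma adjusted p = 5.38e-07). Atg2a, the other paralog (chromosome 19, 6241478 to 6262304), had 92.3, 101 and 94.6 CPM in CDKO pools, against 137, 143 and 132 CPM in control pools, and fell 1.43-fold (log2 difference -0.52, SE 0.05, limma adjusted p = 7.95e-06). Per length of exon, Atg2b made up 31.2% ± 1.49 in CDKO and 40.4% ± 1.23 in control pools of the summed level of the pair (SD, n = 3 each), and the 2 groups did not overlap in this share. Atg9a, the lipid scramblase that seeds the membrane, rose to 106 ± 3.498 CPM in CDKO pools, against 90.2 ± 1.17 CPM in control pools (log2 difference 0.23, limma adjusted p = 0.00183). Neither gene of the WIPI proteins, which read the lipid mark, passed. Wipi2 had 118, 132 and 141 CPM in CDKO pools, against 141, 147 and 144 CPM in control pools, with the highest CDKO pool just under the lowest control pool (log2 difference -0.15, limma adjusted p = 0.0508; 0.0117 to 0.585 across its alternatives), and passed under 7 of 17 alternatives, with the smallest p without CDKO replicate 3 (limma adjusted p = 0.0117). Wipi1, the least abundant member, had 5.84, 8.70 and 8.60 CPM in CDKO pools, against 7.36, 8.20 and 6.80 CPM in control pools with overlapping groups (limma adjusted p = 0.882), and its difference of 0.03 changed sign without CDKO replicate 2 (-0.06), CDKO replicate 3 (-0.05) or control replicate 3 (-0.03).

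Conjugation of ATG12 and of the ATG8 proteins involves 7 members. Of these 2 rose (28.6%, against 31.1% of all genes tested), 2 fell (28.6%, against 35.2%) and 3 did not pass. Atg5, the acceptor to which ATG12 is joined (chromosome 10, 44268322 to 44364299), had 57.2, 62.0 and 56.3 CPM in CDKO pools, against 35.3, 39.9 and 41.2 CPM in control pools. Its pools were separate, and the rise was 1.51-fold (log2 difference 0.58, SE 0.08, limma adjusted p = 5.20e-05). Atg16l1, which brings the joined pair to the membrane, rose as well, averaging 49.5 ± 2.20 CPM in CDKO pools and 35.7 ± 5.25 CPM in control pools (SD, n = 3 each; log2 difference 0.47, SE 0.10, limma adjusted p = 0.00143). Atg10, the enzyme that transfers ATG12 to ATG5 (chromosome 13, 90935348 to 91224725), went down, at 11.7, 11.5 and 11.2 CPM in CDKO pools, against 18.6, 16.6 and 18.1 CPM in control pools (log2 difference -0.59, SE 0.11, limma adjusted p = 5.44e-04). Atg12 itself averaged 41.4 ± 4.11 CPM in CDKO pools and 52.4 ± 5.96 CPM in control pools and was called lower (SD, n = 3 each; log2 difference -0.33, SE 0.10, limma adjusted p = 0.01003), a call that was lost without control replicate 1, its highest pool (limma adjusted p = 0.0503; 0.00226 to 0.0503 across its alternatives). Atg7, the activating enzyme that both systems share, had 82.9, 80.4 and 99.4 CPM in CDKO pools, against 88.2, 83.7 and 80.6 CPM in control pools. Its groups overlapped, CDKO replicate 3 was the highest of all 6 pools, and no difference was called (log2 difference 0.05, SE 0.08, limma adjusted p = 0.576); without that pool the difference was -0.04. Atg3, which transfers ATG8 proteins, averaged 55.3 ± 1.30 CPM in CDKO pools and 60.9 ± 1.19 CPM in control pools (SD, n = 3 each; log2 difference -0.14, limma adjusted p = 0.0561). Atg16l2, a relative of Atg16l1, averaged 52.7 ± 3.16 CPM in CDKO pools and 47.6 ± 1.77 CPM in control pools and did not pass (SD, n = 3 each; log2 difference 0.14, limma adjusted p = 0.0884; 0.00419 to 0.270 across its alternatives), but did without CDKO replicate 3 (limma adjusted p = 0.0479), with DESeq2 (adjusted p = 0.0326) and with GC content and length corrected for (limma adjusted p = 0.00419).

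The ATG4 proteases prepare ATG8 proteins for conjugation and later free them from the membrane. Atg4c had 23.0, 22.9 and 24.5 CPM in CDKO pools, against 13.6, 18.3 and 12.04 CPM in control pools. Every CDKO pool was above the highest control pool, replicate 2, and the rise of 1.604-fold made it the member with the largest positive difference (log2 difference 0.67, SE 0.14, limma adjusted p = 0.00128). Atg4d had 34.99, 35.1 and 37.2 CPM in CDKO pools, against 22.7, 26.6 and 24.9 CPM in control pools and rose 1.45-fold (log2 difference 0.52, SE 0.09, limma adjusted p = 3.03e-04). Atg4b, per length the most abundant of these 3 genes at 20.6 ± 1.78 CPM per kb in CDKO and 23.1 ± 1.11 CPM per kb in control pools, did not pass (log2 difference -0.16, limma adjusted p = 0.0525; 0.0264 to 0.243 across its alternatives), though it did under 4 of 17 alternatives, without CDKO replicate 1 among them (limma adjusted p = 0.0273).

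ATG8 proteins, the LC3 and GABARAP proteins that coat the autophagosome and bind cargo receptors, showed small differences. Map1lc3b, which encodes LC3B (chromosome 8, 121590438 to 121598760), had 266, 295 and 303 CPM in CDKO pools, against 321, 331 and 344 CPM in control pools. It was the 1 member of the family that passed, lower in all CDKO pools by 1.15-fold (log2 difference -0.21, SE 0.05, limma adjusted p = 0.00456). Gabarap had 126, 121 and 124 CPM in CDKO pools, against 113, 117 and 127 CPM in control pools with overlapping groups (log2 difference 0.06, SE 0.05, limma adjusted p = 0.357). Gabarapl1 had 187, 190.1 and 181 CPM in CDKO pools, against 195, 192 and 197 CPM in control pools, and although its groups did not overlap, the difference was not called (log2 difference -0.07, SE 0.04, limma adjusted p = 0.178). Gabarapl2 averaged 22.9 ± 0.473 CPM in CDKO pools and 20.6 ± 1.28 CPM in control pools and Map1lc3a 9.97 ± 1.32 CPM in CDKO pools and 10.3 ± 0.143 CPM in control pools (SD, n = 3 each), with log2 differences of 0.14, limma adjusted p = 0.202, and -0.05, limma adjusted p = 0.759. The sign for Map1lc3a was positive with quantile normalization, with GC content and length corrected for, and when CDKO replicate 1 was left out (0.06). Per length of exon, Gabarapl1 gave 37.6% ± 1.03 in CDKO and 38.1% ± 1.04 in control pools of the family's summed level, Gabarap 33.7% ± 1.04 in CDKO and 31.4% ± 0.908 in control pools, and Map1lc3b 20.4% ± 1.17 in CDKO and 22.8% ± 0.217 in control pools (SD, n = 3 each). The share of Map1lc3b was lower in every CDKO pool than in any control pool.

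The 3 cargo receptor genes among the members fell, where 35.2% of all genes tested were called lower. These receptors bind ubiquitin on cargo and ATG8 proteins on the membrane. Of related genes outside the members, counted below with other autophagy machinery, Tollip rose (log2 difference 0.48, limma adjusted p = 6.52e-06). Tax1bp1 and Calcoco1 fell (log2 difference -0.17, limma adjusted p = 0.00451, and -0.16, limma adjusted p = 0.0439). Ncoa4 and Tex264 were not called (log2 differences 0.24 and 0.13). Nbr1 (chromosome 11, 101552107 to 101581951) had 113, 128 and 119 CPM in CDKO pools, against 158, 163 and 169.5 CPM in control pools. The groups were separate and the fall was 1.36-fold (log2 difference -0.44, SE 0.06, limma adjusted p = 3.37e-05). Optn, the receptor optineurin, had 22.3, 16.8 and 19.1 CPM in CDKO pools, against 29.99, 29.8 and 31.4 CPM in control pools, and its CDKO pools were all lower, 1.57-fold on average (log2 difference -0.63, SE 0.11, limma adjusted p = 3.41e-04). Sqstm1, which encodes p62, had 141, 139.7 and 124 CPM in CDKO pools, against 158, 158 and 153 CPM in control pools, and its fall was smaller (log2 difference -0.22, SE 0.06, limma adjusted p = 0.00494). The Sqstm1 call was lost after the GC and length correction (limma adjusted p = 0.0614; 0.00130 to 0.0614 across its alternatives).

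The 3 mitophagy genes among the 44 were lower as well, where 35.2% of all genes tested were called lower. Pink1, the kinase that marks damaged mitochondria (chromosome 4, 138313409 to 138326296), had 141, 163 and 156 CPM in CDKO pools, against 218, 228 and 225 CPM in control pools. No CDKO pool came near the control pools, and the fall was 1.46-fold (log2 difference -0.55, SE 0.06, limma adjusted p = 7.49e-06). Bnip3l, which encodes NIX, the receptor known for clearing mitochondria from maturing red cells, had 132, 137 and 129.7 CPM in CDKO pools, against 152, 153 and 162 CPM in control pools (log2 difference -0.23, SE 0.05, limma adjusted p = 0.00134). Bnip3, its hypoxia-induced relative, had 16.7, 17.3 and 22.7 CPM in CDKO pools, against 23.8, 26.0 and 28.1 CPM in control pools, with CDKO replicate 3 closest to the control pools (log2 difference -0.45, SE 0.12, limma adjusted p = 0.00755). Markers of red cell precursors fell in the same pools, with 7 of 9 tested genes lower and none called higher. Their summed level was 2333 to 2552 CPM in CDKO and 2976 to 3218 CPM in control pools, most of it Car2, which was not called. Without Car2 the markers summed to 56.5 to 92.1 CPM in CDKO and 508 to 577 CPM in control pools. Hbb-bt was at 0 in all libraries. The part of this difference in the Bnip3l result was not tested.

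Genes of the lysosomal membrane and of cathepsins, the proteases of its lumen, had 3 of 7 called higher (42.9%, against 31.1% of all genes tested) and none lower, and the other 4 did not pass. Of 59 other lysosomal genes 15 rose and 23 fell. Membrane protein genes among these went both ways. Laptm4a and Laptm4b, for example, rose, while Cd63, Cd68, Scarb2 and Laptm5 fell. Lamp2, a membrane protein also needed for chaperone-mediated autophagy (chromosome X, 38399647 to 38456460), had 379.7, 336 and 350.1 CPM in CDKO pools, against 252, 273 and 262 CPM in control pools. All CDKO pools were above all control pools, a rise of 1.35-fold (log2 difference 0.43, SE 0.05, limma adjusted p = 2.31e-05). Lamp1, the abundant membrane protein whose promoter is printed above (chromosome 8, 13159161 to 13175338), had 327, 325 and 319.8 CPM in CDKO pools, against 295, 292 and 295 CPM in control pools. The pools of each group lay within a few CPM of each other, and the rise of 1.10-fold passed (log2 difference 0.14, SE 0.04, limma adjusted p = 0.00642). Ctsb, cathepsin B, had 390.1, 392.4 and 389.6 CPM in CDKO pools, against 351, 351 and 362 CPM in control pools and rose by a similar factor, 1.10-fold (log2 difference 0.14, SE 0.04, limma adjusted p = 0.00616). Ctsd, cathepsin D and the most abundant member per length, had 439, 427 and 429.5 CPM in CDKO pools, against 408, 409.7 and 409 CPM in control pools. Its groups did not overlap, and it did not pass here (log2 difference 0.08, SE 0.04, limma adjusted p = 0.0747; 0.00703 to 0.723 across its alternatives), while the authors' deposited table gave an adjusted p of 0.00318. Ctsa, Ctsz and Ctsl had overlapping groups and log2 differences of 0.05, 0.02 and 0.01, and that of Ctsl changed sign without CDKO replicate 2 (-0.07), control replicate 1 (-0.03) or control replicate 3 (-0.02).

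Lysosomal genes are strongly expressed in mature myeloid cells, and markers of such cells differed between the groups. All 9 neutrophil markers found were lower, with a summed level of 15.4 to 81.0 CPM in CDKO and 775 to 1019 CPM in control pools, and CDKO replicate 3 was the highest of its group. Of 6 basophil and mast cell markers 5 were lower and Gzmb was higher, summed at 6.64 to 10.6 CPM in CDKO and 199.9 to 259 CPM in control pools. Monocyte and macrophage markers went both ways, 6 of 10 higher and 4 lower, at 52.4 to 60.6 CPM in CDKO and 38.8 to 49.6 CPM in control pools. Of 6 megakaryocyte markers 5 were higher (430.3 to 439 CPM in CDKO and 305 to 334 CPM in control pools). Of the B cell markers, Cd79b averaged 56.8 ± 1.63 CPM in CDKO pools and 42.6 ± 4.51 CPM in control pools and was called higher (SD, n = 3 each; log2 difference 0.41, limma adjusted p = 8.04e-04). Cd79a, at 0.991 ± 0.173 CPM in CDKO pools and 1.37 ± 0.246 CPM in control pools, and Ebf1, at 1.04 ± 0.345 CPM in CDKO pools and 1.29 ± 0.488 CPM in control pools, were not called, and Ms4a1 and Pax5 were at 0 in all libraries. Of T and NK cell markers Cd3e and Cd3g were at 0 in all libraries and Klrb1c was the 1 of 2 tested that passed, higher, at 22.9 to 27.3 CPM in CDKO and 13.6 to 16.6 CPM in control pools for the list. Without CDKO replicate 3, 14 members were called higher and 17 lower, against 3969 and 4699 of the 13732 genes tested. CDKO replicates 1 and 2 had neutrophil sums of 22.5 and 15.4 CPM, far under the control pools. The difference in these markers thus remained in that fit, which cannot show the part of other cells. The part of other cells in the members' differences was not tested.

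Levels of the members spanned a wide range when set per length of exon. In both groups Ctsd stood first, at 203 ± 3.04 CPM per kb in CDKO and 192 ± 0.400 CPM per kb in control pools, followed by Lamp1, at 145 ± 1.58 CPM per kb in CDKO and 132 ± 0.717 CPM per kb in control pools, and by Gabarapl1, at 102 ± 2.65 CPM per kb in CDKO and 107 ± 1.15 CPM per kb in control pools (SD, n = 3 each). Gabarap came next, at 91.7 ± 1.79 CPM per kb in CDKO and 88.1 ± 5.43 CPM per kb in control pools, and its order after Gabarapl1 exceeded the spread of the pools in both groups. The following places differed, since Pink1 stood just after Gabarap in control pools and after Ctsb, Ctsz and Lamp2 in CDKO pools. Its level was 57.2 ± 4.27 CPM per kb in CDKO and 83.7 ± 1.92 CPM per kb in control pools, while Lamp2 had 70.5 ± 4.39 CPM per kb in CDKO and 52.1 ± 2.08 CPM per kb in control pools. In control pools Ctsb and Ctsz had 74.8 ± 1.27 and 74.4 ± 0.759 CPM per kb, neighbours that did not differ beyond their spread. Tfe3, at 15.9 ± 0.384 CPM per kb in CDKO and 11.9 ± 0.294 CPM per kb in control pools, stood above Tfeb, at 7.10 ± 0.711 CPM per kb in CDKO and 5.45 ± 0.437 CPM per kb in control pools, and Tfe3 gave 69.2% ± 2.53 in CDKO and 68.5% ± 1.91 in control pools of the pair's sum, so the balance of the pair differed by less than the spread between pools. Wipi1 was the lowest in both groups, at 1.81 ± 0.380 CPM per kb in CDKO and 1.74 ± 0.165 CPM per kb in control pools. Lengths are those of all annotated exons joined, and the isoforms in use are not known from these counts.

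**Figure D3:**
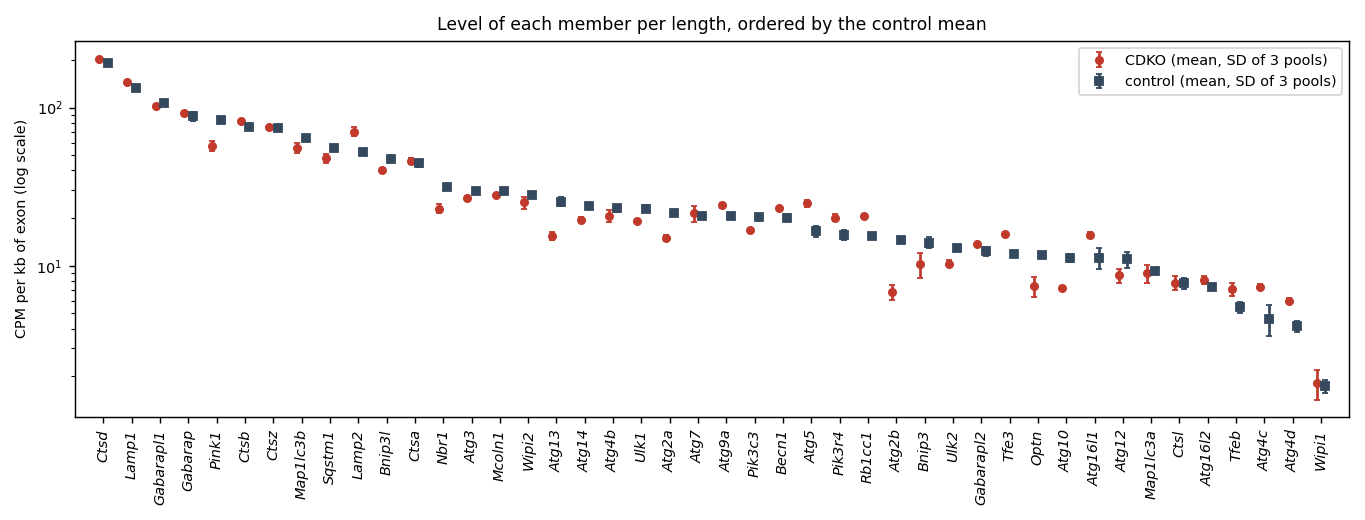
Mean level per kb of exon of each member on a log axis, CDKO left and control right of each mark, with SD of 3 pools, ordered by the control mean. Ctsd, Lamp1, Gabarapl1 and Gabarap lead in both groups, and the CDKO mark of Atg2b lies below its control mark (6.83 ± 0.722 CPM per kb in CDKO and 14.6 ± 0.357 CPM per kb in control pools).

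Related genes outside the list were counted from further lists. Beside the counts of each list, 31.1% of all genes tested were called higher and 35.2% lower. Of 23 tested genes of other autophagy machinery 8 rose and 7 fell (median log2 difference 0.03, beside -0.02 over all genes tested). The 3 genes with the smallest p were partners or regulators of the lipid kinase complex, while Nrbf2, another partner, was not called (log2 difference 0.04, limma adjusted p = 0.761). Rubcn, listed as 1700021K19Rik, which encodes Rubicon, a brake on the complex, averaged 104 ± 7.11 CPM in CDKO pools and 41.7 ± 3.79 CPM in control pools (log2 difference 1.30, SE 0.08, limma adjusted p = 2.91e-07). Uvrag, the subunit that replaces ATG14 in the endosomal form of the complex, averaged 127 ± 3.69 CPM in CDKO pools and 76.4 ± 6.09 CPM in control pools (log2 difference 0.73, limma adjusted p = 2.41e-06), and Ambra1, a regulator of Beclin 1 and ULK1, averaged 122 ± 3.70 CPM in CDKO pools and 75.6 ± 5.75 CPM in control pools (log2 difference 0.69, limma adjusted p = 3.03e-06; SD, n = 3 each). Epm2a and Tmem41b rose by more than Uvrag and Ambra1 on the log2 scale (log2 difference 1.01, limma adjusted p = 0.00100, and 0.95, limma adjusted p = 3.96e-05). Both stood at lower levels. Epm2a averaged 2.62 ± 0.596 CPM in CDKO pools and 0.818 ± 0.481 CPM in control pools (SD, n = 3 each). Tmem41b averaged 22.1 ± 2.97 CPM in CDKO pools and 10.9 ± 0.703 CPM in control pools. Rubcn, Uvrag and Ambra1 rose in pools where Atg14 and Pik3c3 fell and Pik3r4 and Becn1 rose. Any link between these differences was not tested. Becn2 had no reads.

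Upstream of autophagy stand mTORC1, the nutrient-sensing kinase complex that holds it back, AMPK and FOXO. RNA levels of genes of this control were mixed, with 11 of 41 genes higher and 15 lower (median log2 difference -0.00). Depdc5, a subunit of the GATOR1 complex that restrains mTORC1, averaged 49.1 ± 1.43 CPM in CDKO pools and 20.2 ± 0.983 CPM in control pools (log2 difference 1.24, SE 0.08, limma adjusted p = 3.91e-07). Tsc1, another restraint on mTORC1, averaged 27.3 ± 1.19 CPM in CDKO pools and 56.9 ± 2.36 CPM in control pools (log2 difference -1.04, SE 0.07, limma adjusted p = 7.14e-07), and Rptor, the mTORC1 subunit Raptor, averaged 51.7 ± 4.89 CPM in CDKO pools and 101 ± 4.98 CPM in control pools (log2 difference -0.95, SE 0.07, limma adjusted p = 1.16e-06; SD, n = 3 each). Depdc5 thus rose while Tsc1 and Rptor fell.

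The machinery that fuses autophagosomes with lysosomes had 7 of 20 genes higher and 3 lower (median 0.11). Rilp, an adaptor of RAB7 on lysosomes, rose to 7.85 ± 0.486 CPM in CDKO pools, against 2.30 ± 0.339 CPM in control pools (log2 difference 1.43, limma adjusted p = 7.69e-06). Vps39, a subunit of the HOPS tether, averaged 111 ± 4.88 CPM in CDKO pools and 168 ± 3.73 CPM in control pools and fell (log2 difference -0.59, limma adjusted p = 1.85e-06), as did Arl8a, a GTPase that moves lysosomes (log2 difference -0.73, limma adjusted p = 1.14e-05). The 18 further genes of mitophagy and selective receptors, of which 6 rose and 5 fell, had a median log2 difference of 0.03. Fundc1, a mitophagy receptor, and Tbk1, a kinase that acts on receptors, were among those that rose (log2 difference 0.36, limma adjusted p = 0.00261, and 0.32, limma adjusted p = 0.00140). Usp30, a deubiquitinase that opposes mitophagy, averaged 31.8 ± 3.46 CPM in CDKO pools and 19.4 ± 2.37 CPM in control pools and rose (log2 difference 0.68, limma adjusted p = 3.04e-04). Nipsnap1 and Nipsnap2 (listed as Gbas), mitochondrial proteins known to recruit autophagy receptors in human cells, fell (log2 difference -0.69, limma adjusted p = 4.59e-06, and -0.47, limma adjusted p = 9.21e-06).

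Genes of the vacuolar ATPase, the proton pump that acidifies lysosomes, went both ways, 5 of 17 higher and 4 lower (median -0.04). Among its genes for the membrane subunit a, Atp6v0a2 averaged 153 ± 2.48 CPM in CDKO pools and 85.4 ± 0.929 CPM in control pools and rose (log2 difference 0.84, SE 0.05, limma adjusted p = 1.49e-07), while Tcirg1 averaged 102 ± 4.57 CPM in CDKO pools and 156 ± 4.36 CPM in control pools and fell (log2 difference -0.61, SE 0.05, limma adjusted p = 1.91e-06). Atp6v1g2, a minor form of subunit G, averaged 7.61 ± 0.627 CPM in CDKO pools and 18.7 ± 1.39 CPM in control pools and fell (log2 difference -1.20, limma adjusted p = 7.45e-06). Atp6v0c, a subunit that the pump needs in every cell, was listed at no more than 0.117 CPM in any library and was not tested.

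The 59 other lysosomal hydrolases and membrane proteins, with 15 higher and 23 lower, had a median log2 difference near that of all genes (-0.04). Ctss, cathepsin S, a protease of antigen presentation, averaged 54.0 ± 6.58 CPM in CDKO pools and 9.85 ± 1.182 CPM in control pools (log2 difference 2.34, SE 0.12, limma adjusted p = 1.14e-07). Neu1, the lysosomal sialidase, averaged 15.05 ± 1.94 CPM in CDKO pools and 47.2 ± 2.58 CPM in control pools (log2 difference -1.59, SE 0.10, limma adjusted p = 4.70e-07), and Arsa, arylsulfatase A, averaged 20.7 ± 2.56 CPM in CDKO pools and 49.1 ± 3.81 CPM in control pools (log2 difference -1.21, SE 0.10, limma adjusted p = 2.23e-06; SD, n = 3 each). Macrophage markers went both ways in the same pools, since Csf1r averaged 21.5 ± 1.68 CPM in CDKO pools and 3.22 ± 0.626 CPM in control pools, and Adgre1, listed as Emr1, averaged 0.570 ± 0.232 CPM in CDKO pools and 2.47 ± 0.284 CPM in control pools (SD, n = 3 each; log2 differences 2.42 and -1.15). The part of such cells in the Ctss result was not tested.

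**Figure D4:**
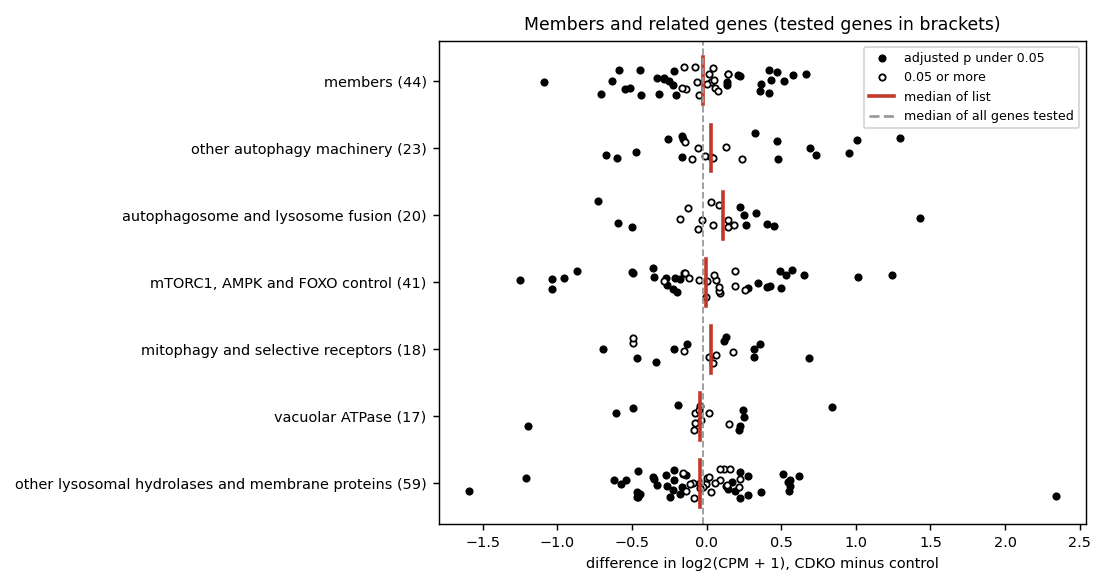
Difference in log2(CPM + 1), CDKO minus control, of each tested gene of the members and of the 6 related lists, filled where the adjusted p was under 0.05, with the median of each list and, dashed, that of all genes tested. The list medians lie between -0.04 and 0.11, close to the -0.02 of all genes, and genes past the test lie on both sides in every list.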

How the data were processed

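RNA from HSC of 3 CDKO and 3 control pools was amplified with a SMARTer ultra low input kit and made into Nextera XT libraries, per the labels' protocols. TopHat2, HTSeq and DESeq2 and the build mm10 are named, without versions or annotation, per the submitters' processing notes. The deposited library columns are CPM, each summing to 1000000. Whole reads were recovered from 100.0% of positive values (tolerance 0.01 read). The authors' baseMean column, a signal, was not used. The deposited log2 fold change sets control over CDKO and, with the authors' p-value columns, was read only where the authors' table is named. The deposited stat column is a score and was not used.

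All genes with a mean of at least 10 recovered reads were tested with limma 3.58.1 (R 4.3.3) on log2(CPM + 1), with a mean-variance trend and no other term; this fold scale understates changes of low genes. Folds are ratios of mean CPM, but the 1.5-fold minimum was set on the difference in log2(CPM + 1). Rows with a date for a symbol (12) or a shared symbol (2) were left out. The members and lists were chosen with earlier results of these data known. In full were given the 2 members of each role with the smallest p and 14 set by name. For each related list, up to 3 called genes with the smallest p were named. Other members, other genes of the related lists and markers were named after their values were seen. Alternatives were a replicate block, leaving out each library, 3 other filters, pseudocounts of 0.5 and 5, scaling by TMM or quantiles, count tests on the recovered reads with edgeR 4.0.16 or DESeq2 1.42.0, a loess correction for GC content and transcript length (GENCODE M21, 99.2% of tested genes) and a 1.5-fold minimum. The limma step was tested on simulated data. Coordinates and promoters are from RefSeq, GRCm38.p6, the assembly of mm10. P-values set the difference between the groups against the spread between pools, which limma moderates over all genes tested. A further B cell marker, and the list's sum and counts, are not reported here.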

Additional observations from a re-analysis of the deposited data

How the results depend on the processing

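Over the 17 alternatives other than a fold minimum, the number of members called higher ran from 13 to 16 and the number called lower from 14 to 18. Over all genes these numbers ran from 3250 to 5017 and from 3326 to 4894, with 9885 to 16945 genes tested. All 13 members called higher kept their call in all 17, and 13 of the 16 called lower did, the exceptions being Ulk1, Sqstm1 and Atg12. Of the 15 not called, 4 gave the same answer throughout (Gabarap, Gabarapl1, Mcoln1 and Ctsz). A 1.5-fold minimum on the log2(CPM + 1) scale left 1 member higher and 4 lower, and 1645 and 2354 of all genes. With that minimum 5 genes of other autophagy machinery were higher and 2 lower, 3 and 5 of mTORC1, AMPK and FOXO control, 1 and 1 of mitophagy and selective receptors, 1 and 2 of the vacuolar ATPase, 2 and 3 of the other lysosomal genes, and 1 and 2 of fusion. Signs of uncalled members changed, and the cause was not tested. Leaving out 1 library at a time, the log2 difference ran over -0.0574 to 0.195 for Wipi1, -0.0423 to 0.109 for Atg7, -0.110 to 0.0554 for Map1lc3a and -0.0683 to 0.0709 for Ctsl. For Map1lc3a it was 0.0760 with quantile normalization and 0.0179 after the GC and length correction. Ctsd passed with TMM scaling (limma adjusted p = 0.0451), with edgeR (adjusted p = 0.0397), with DESeq2 (adjusted p = 0.00703) and after the GC and length correction (limma adjusted p = 0.0118), and Ctsa after the GC and length correction (limma adjusted p = 0.0489; 0.0489 to 0.923 across its alternatives). Gabarapl2 passed with quantile normalization (limma adjusted p = 0.0433; 0.0433 to 0.363 across its alternatives), and Atg3 with no filter (limma adjusted p = 0.0298) and with DESeq2 (adjusted p = 0.0388). The count test of edgeR called 4288 genes higher and 4499 lower, against 4264 and 4832 with limma. The replicate numbers are not said to pair libraries. Deviations of CDKO and control libraries with the same number correlated by 0.0518, 0.0483 and -0.0120, and CDKO replicate 3 correlated better with another number than with its own. With replicate number as a block 13 members were higher and 18 lower, against 4347 and 4894 of the 13732 genes tested.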
